A study of Arabidopsis lyrata and Arabidopsis thaliana with 9 samples.

Results

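The leaf-restricted genes of Arabidopsis lyrata are 95 of the 32644 gene identifiers counted in this perennial relative of A. thaliana. They were chosen by level alone. Each had 5 CPM or more in all 3 leaf libraries, 0.5 CPM or less in all 3 inflorescence libraries, and under 1000 CPM in at least 1 leaf library. CPM is the count of a gene scaled to 1000000 counts of its library, here from raw totals and not divided by gene length. The upper limit of 1000 CPM removed no gene. Because leaf and inflorescence levels made the choice, the gap between the tissues is a description and carries no test of its own.

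The study concerned the evolution of binding sites and targets of a regulator of flower development. Directional RNA-seq libraries were prepared from total RNA of plants of wild-type genotype after bolting, the growth of the flowering stem. The 6 A. lyrata libraries used here were 3 of leaves and 3 of inflorescences, from plants of the strain labelled lyrata in long days at 18 °C. The 3 libraries of A. thaliana (Col-0) inflorescences list other genes and were not used here. The labels call the libraries biological replicates but name no plant, harvest position or leaf age, so nothing in them ties a leaf library to an inflorescence library. If leaf libraries came from the same plants or pools, the spread given here is that between samples of them.

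A leaf is built for photosynthesis, but it also exports sugars, stores nitrogen compounds, defends itself against herbivores and microbes, and in an ageing plant takes its own contents apart. An inflorescence holds stem, young flowers with green sepals and often small leaves, so much of the photosynthetic machinery is active there too. Genes used in leaves and hardly at all in inflorescences may be a narrow class. These statements are background. The files give A. lyrata genes as numbers without names, and 0 of these 32644 numbers were found in the RefSeq gene table of A. lyrata, so no function is given to any gene below and the tissue labels could not be checked against marker genes. Only the pair of identifiers with the highest mean leaf level, 941819 and 472352, are printed, and other genes are called by their rank in mean leaf CPM. Near-identical gene copies can share reads, which cannot be seen without names.

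The libraries held 11419322 to 13786151 counts in leaves and 7211749 to 12729487 in inflorescences. The leaf minimum of 5 CPM therefore stood for 57.1 to 68.9 counts, and the inflorescence maximum of 0.5 CPM for 3.61 to 6.36 counts. No library repeated another: within a tissue, each pair of libraries gave a chi-square of 5.94 to 27.1 per gene, where sampling noise alone gives about 1. Leaf library 1 was the deepest of the leaf libraries and held the lowest level of most leaf-restricted genes. The main measures of spread are given with and without it.

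The mean leaf CPM of leaf-restricted genes ran from 5.69 to 379, with a median of 24.2 and quartiles of 12.3 and 40.5. For the 13599 genes that met the leaf conditions whatever their inflorescence level, the median was 29.9, with quartiles of 15.1 and 62.4. The means of 17 leaf-restricted genes lay under 10 CPM, and those of 37 between 10 and 30. Another 37 lay between 30 and 100, and 4 above 100 CPM. The 13599 genes numbered 1637, 5172, 4921 and 1869 in these bands. The 4 highest together held 27.6% of the summed mean level of all 95. The set took up 0.353% ± 0.0621 of leaf counts (SD, n = 3).

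Gene 941819 had the highest level, at 447, 285 and 403 CPM in leaf libraries 1, 2 and 3, or 379 ± 83.8 CPM (SD, n = 3). Gene 472352 followed at 222, 245 and 354 CPM, or 273 ± 70.7 CPM. The lowest library differed between the pair, being library 2 for 941819 and library 1 for 472352. The gene ranked 3 stood at 99.7, 212 and 229.7 CPM in the same order of libraries. The gene ranked 4 stood at 70.6, 246 and 109 CPM. Both had their lowest level in library 1, and they reached their highest in library 3 and in library 2 respectively. Genes ranked 5 to 12 had means of 94.7 down to 56.8 CPM.

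**Figure D1:**
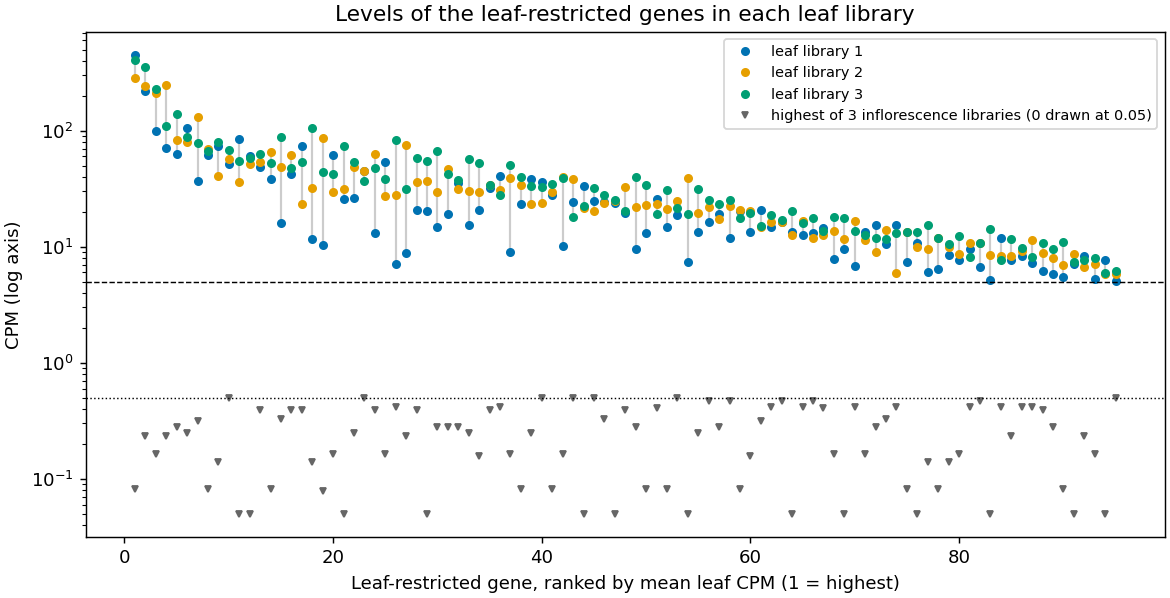
CPM on a log axis of the 95 leaf-restricted genes, ranked by mean leaf level. Coloured points are the 3 leaf libraries joined by a grey line, triangles the highest of the 3 inflorescence libraries, and the dashed and dotted lines the thresholds of 5 and 0.5 CPM. Blue points of leaf library 1 lie at the bottom of the grey line for 62 of the 95 genes.

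In inflorescences the 95 genes were close to absent in counts. They summed to 189, 95 and 186 counts in inflorescence libraries 1, 2 and 3, or 14.8, 13.2 and 15.3 CPM, against 2897, 3564 and 4137 CPM in leaf libraries 1, 2 and 3. The mean leaf sum was 245 times the mean inflorescence sum. In bulk tissue, fewer cells that hold an RNA and less of it per cell cannot be told apart. No gene had more than 14 counts over the 3 inflorescence libraries, and the median was 4. Gene 941819 had 2 of these counts and gene 472352 had 4, for a ratio of leaf to inflorescence of 2169 in 472352 with a 95% exact counting interval of 847 to 7962. Such intervals cover counting error only.

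For 13 of the 95 genes no count was found among 32117936 inflorescence counts, which allows a level of up to 0.0934 CPM. Their mean leaf CPM had a median of 21.7 and a range of 6.48 to 58.5, so none of the 10 highest-ranked genes was among them. Set against a floor of 3 counts over the inflorescence group, their leaf levels were 70.1-fold to 644-fold higher. The lower limits of their 95% exact counting intervals ran from 56.6 to 523. For the 53 genes with more than 3 inflorescence counts, the ratio of leaf to inflorescence had a median of 92.1 and ran from 22.7 to 2169. The other 29 genes had 1 to 3 counts.

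A model of all genes placed the set at one end, as the choice of genes required. In edgeR's quasi-likelihood test of inflorescences against leaves, all 95 passed the filter on low counts and were called lower at a Benjamini-Hochberg adjusted p under 0.05, beside 34.1% of the 19638 genes tested. Leaf and inflorescence libraries did not overlap, with leaves higher, for 30.5% of tested genes. The log2 fold change, inflorescence minus leaf, had a median of -7.62 over the set, from -12.49 to -4.63, against 0.05 over all tested genes. For genes with few inflorescence counts this value depends on the prior count of the fit. The rule used this contrast, so nothing further is read from these calls.

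The thresholds passed through a continuous range of levels. The gene just inside the leaf minimum had 5.08, 5.77 and 6.22 CPM in leaf libraries 1, 2 and 3, and the nearest one outside had 4.86, 6.65 and 5.95 CPM. A gene just inside the inflorescence maximum had 51.5, 57.3 and 67.95 CPM in leaves and 0.393, 0.139 and 0.493 CPM in inflorescences. One of the 6 genes nearest outside had 37.9, 44.7 and 64.7 CPM in leaves and 0.550, 0 and 0.164 CPM in inflorescences. One added read in 1 inflorescence library could move such a gene across the limit.

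The levels of leaf-restricted genes differed widely between the leaf libraries. The coefficient of variation (CV, the SD divided by the mean over the 3 libraries) had a median of 0.257 over the 95 genes, with quartiles of 0.142 and 0.423. The comparison set was the 13599 leaf-expressed genes, which meet the leaf conditions of the rule whatever their inflorescence level, the 95 included. Their median CV was 0.0917, with quartiles of 0.0570 and 0.141. The CV exceeded the leaf-expressed median in 84 of the 95 genes and lay in the top 10% of leaf-expressed genes, above 0.206, in 61. From libraries 2 and 3 alone these counts were 73 and 45. Genes of the same 3 libraries are not independent replicates, so no p-value is attached to this difference.

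Counting error was a small part of that spread. With the counting variance taken off, the median CV was 0.250 for leaf-restricted and 0.0718 for leaf-expressed genes. The chi-square of the 3 counts against equal CPM, per degree of freedom, is near 1 where counting error alone is at work. Its median was 17.0 for leaf-restricted and 3.09 for leaf-expressed genes. From libraries 2 and 3 alone the corrected CV was 0.177 and 0.0476, and the chi-square 7.38 and 1.93. The difference was also examined by mean level. Under 10 CPM the median CV was 0.220 for 17 leaf-restricted genes and 0.125 for 1637 leaf-expressed ones. From 10 to 30 CPM the medians were 0.256 over 37 genes and 0.103 over 5172. From 30 to 100 CPM they were 0.366 over 37 genes and 0.0798 over 4921. The 4 leaf-restricted genes above 100 CPM had a median CV of 0.325, beside 0.0741 for 1869 leaf-expressed genes. Without library 1 the medians under 10 CPM were 0.108 and 0.104, and so lay close together. They were 0.141 and 0.0820 from 10 to 30 CPM, 0.246 and 0.0647 from 30 to 100 CPM, and 0.250 and 0.0617 above. Medians by level without library 2 or library 3 are not given here, so the change under 10 CPM is not assigned to library 1.

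**Figure D2:**
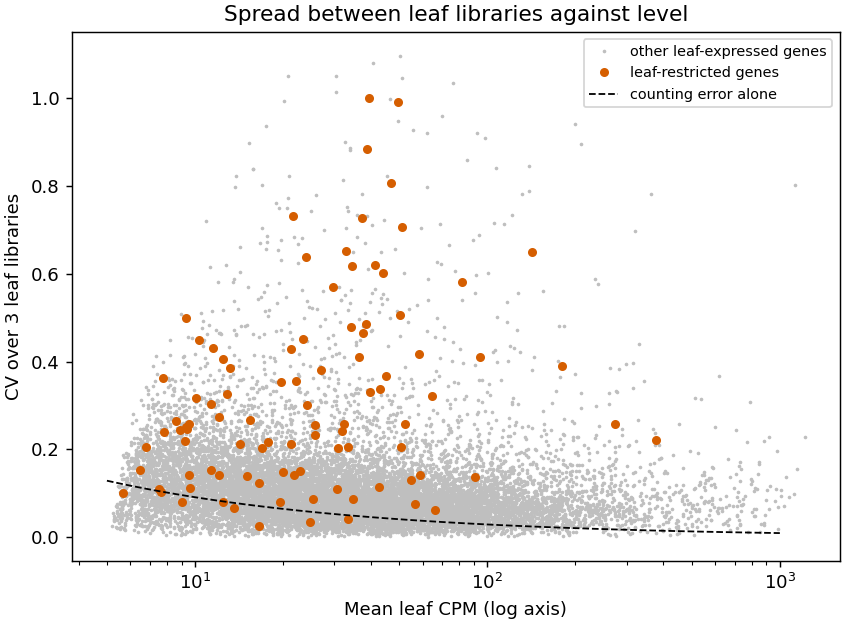
CV over the 3 leaf libraries against mean leaf CPM (log axis) for the 95 leaf-restricted genes (orange) and the other leaf-expressed genes (grey). The dashed line is the CV that counting error alone would give, and most orange points lie above it, with a median CV of 0.257.

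A difference of 2-fold or more between the highest and lowest leaf library was found in 35 of the 95 genes, or 36.8%, beside 2.72% of leaf-expressed genes (370 of 13599). Leaf-restricted genes thus made up 9.46% of all leaf-expressed genes with so wide a spread. A difference of 4-fold or more was found in 10 of them (10.5%) and in 79 leaf-expressed genes (0.581%). These counts rested largely on library 1. Between libraries 2 and 3 alone, 10 leaf-restricted genes (10.5%) and 99 leaf-expressed genes (0.728%) differed by 2-fold, and at 4-fold there were 0 and 3. Without library 3 the leaf-restricted counts were 19 at 2-fold and 5 at 4-fold, beside 158 and 21 leaf-expressed genes. Without library 2 the leaf-restricted counts were 28 and 7, beside 310 and 68 leaf-expressed genes. The median CV between libraries 2 and 3 was 0.187 for leaf-restricted and 0.0736 for leaf-expressed genes.

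The gene with the widest spread, ranked 26 by level, had 7.11, 27.8 and 83.4 CPM in leaf libraries 1, 2 and 3, an 11.7-fold range. The gene ranked 18 had 11.7, 31.8 and 104.7 CPM, an 8.97-fold range. Both were lowest in library 1 and highest in library 3. A different order was seen in the gene ranked 27, with 8.78, 75.9 and 31.2 CPM, and in the gene ranked 19, with 10.4, 85.7 and 44.0 CPM. Library 2 was the highest in that pair, and library 1 again the lowest. Ranges of 5.57-fold and 5.45-fold followed in the genes ranked 37 and 15, at 9.07, 38.9 and 50.5 CPM and at 16.2, 48.8 and 88.1 CPM. All 10 genes with a range of 4-fold or more were lowest in library 1, with 6 highest in library 3 and 4 highest in library 2. Of the 79 leaf-expressed genes with such a range, 3 kept it between libraries 2 and 3 alone. Library 1 was thus the highest or the lowest library in most of those 79. At 2-fold or more, 321 of 370 leaf-expressed genes (86.8%) were lowest in library 1.

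At the other end, 11 leaf-restricted genes (11.6%) varied by under 1.2-fold, beside 52.4% of leaf-expressed genes. Leaving out any library can only keep or narrow such a range. Between libraries 2 and 3 alone, 40 leaf-restricted genes (42.1%) and 74.4% of leaf-expressed genes varied by under 1.2-fold. The steadiest, ranked 63, had 16.3, 16.2 and 17.0 CPM in libraries 1, 2 and 3. The gene ranked 47 had 23.8, 24.9 and 25.4 CPM and no inflorescence count. The gene ranked 35 had 31.8, 33.8 and 34.3 CPM. The spread of these 3 genes was no wider than counting error, with chi-square values per degree of freedom of 0.130, 0.354 and 0.700. The gene ranked 8 was steady at a higher level, with 62.1, 70.2 and 66.8 CPM and 1 inflorescence count. Near absence from inflorescences thus went with both steady and widely varying leaf levels.

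Leaf library 1 held the lowest level of 62 leaf-restricted genes (65.3%), library 2 of 26 and library 3 of 7. Among leaf-expressed genes the shares were nearly even, with 34.6% lowest in library 1, 30.8% in library 2 and 34.6% in library 3. Library 3 held the highest level of 50 leaf-restricted genes (52.6%), against 33.7% of leaf-expressed genes. The order with library 3 highest and library 1 lowest, that of the gene with the widest spread, was shared by 41 of the 95 genes (43.2%), against 19.2% of leaf-expressed genes. The order with library 2 highest and library 1 lowest was seen in 21 genes (22.1%), against 15.4% of leaf-expressed genes. Library 1 was highest and library 2 lowest in 17 genes (17.9%), near the 16.3% of leaf-expressed genes. Gene 941819 was one of those 17.

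In ratio terms, the median log2 ratio of leaf library 3 over library 1 was 0.40 for leaf-restricted and -0.01 for leaf-expressed genes. For library 2 over library 1 the medians were 0.28 and 0.00402, and for library 3 over library 2 they were 0.20 and -0.00082. Library 3 exceeded library 1 by 2-fold or more in 28 leaf-restricted genes, and the reverse was seen in 0. Among the 13599 leaf-expressed genes these counts were 289 and 21. Library 2 exceeded library 1 by 2-fold or more in 15 leaf-restricted genes, and library 1 exceeded library 2 in 4. Among leaf-expressed genes these counts were 136 and 22. Differences of this size thus had library 1 as the lower library more often in leaf-expressed genes at large too. The median CPM of the leaf-restricted set was 15.5, 23.4 and 27.8 in libraries 1, 2 and 3. Its share of counts was 0.290%, 0.356% and 0.414%. Without gene 941819 the sums were 2449, 3279 and 3733 CPM, so the low total of library 1 did not come from that gene.

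**Figure D3:**
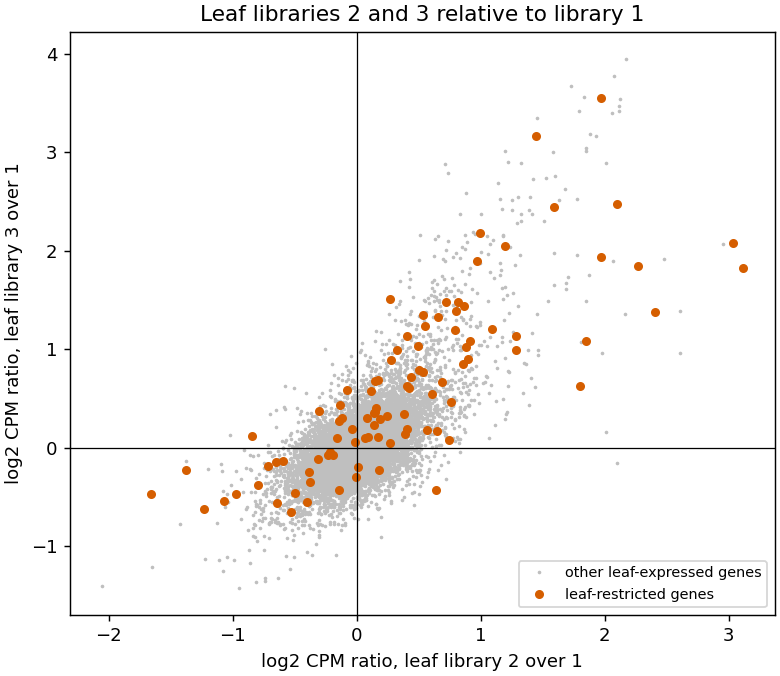
Log2 CPM ratios of leaf library 2 over 1 (horizontal) and 3 over 1 (vertical) for the 95 leaf-restricted genes (orange) and the other leaf-expressed genes (grey). Both axes share library 1, so points spread along the diagonal by construction. Orange points reach 3.11 and 3.55 on the 2 axes. Above 0 on the vertical axis lie 71 of the 95 (74.7%), beside 49.1% of all leaf-expressed genes.

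Low levels in library 1 were also seen in widely varying leaf genes at large. Of the 35 leaf-restricted genes with a range of 2-fold or more, 30 (85.7%) were lowest in library 1, and of the 370 leaf-expressed genes with such a range, 321 (86.8%) were. Library 3 was the highest for 21 of the former and 270 of the latter. Among the 60 leaf-restricted genes with a range under 2-fold, 32 (53.3%) were lowest in library 1, against 33.1% of the 13229 leaf-expressed genes with such a range. The shares were thus close among widely varying genes and further apart among the steadier ones. Library 1 was also the deepest leaf library, at 13786151 counts against 11428776 and 11419322, and the part of depth in this order was not tested. The labels name no batch or harvest that sets it apart.

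**Figure D4:**
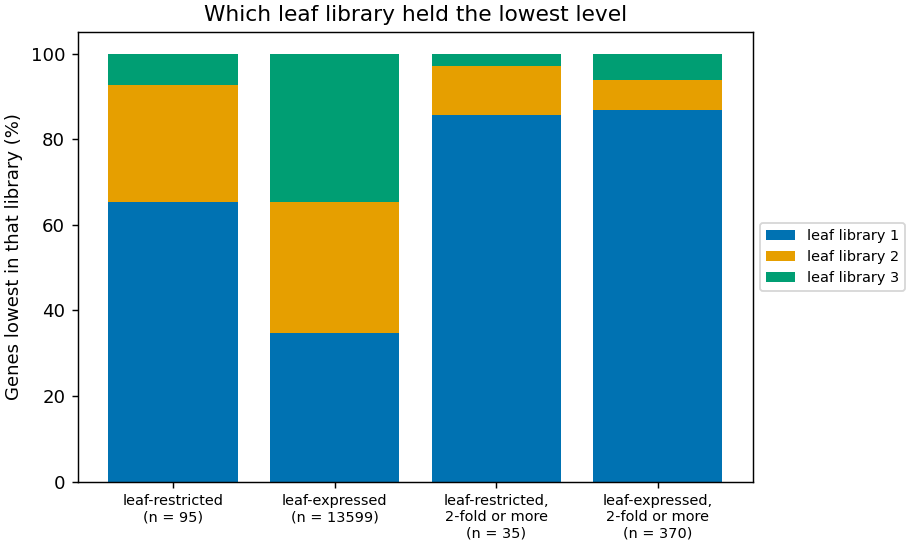
Share of genes (%) whose lowest level was in leaf library 1, 2 or 3, for leaf-restricted and leaf-expressed genes and for those of each with a range of 2-fold or more. Library 1 takes 65.3% of leaf-restricted and 34.6% of leaf-expressed genes, and 85.7% and 86.8% of the widely varying ones.

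The low levels of library 1 also shaped which genes met the rule. A further 57 genes had 0.5 CPM or less in every inflorescence library and a mean leaf CPM of 5 or more, but fell under 5 CPM in at least 1 leaf library. Library 1 was the lowest for 53 of these 57, so by the choice all 53 were under the minimum there, 3 with no count. Libraries 2 and 3 were under the minimum for 12 and 5. Their median of mean leaf CPM was 7.65, with a highest value of 91.1. Their median CV of 0.672 is partly set by the condition that 1 library lies under the minimum. When the rule was applied to leaf libraries 2 and 3 alone, 138 genes met it, against 98 without library 2 and 97 without library 3. Taking both sets of genes together, chosen by mean leaf level in place of every library, the 152 genes had a median CV of 0.399, beside 0.0949 for the 14185 genes with a mean leaf CPM from 5 to 1000.

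Among leaf-expressed genes, the median spread between leaf libraries was higher in groups with lower inflorescence levels. Grouped by their highest inflorescence level, a measure that does not use the leaf values, the median leaf CV was 0.257 for the leaf-restricted genes and 0.183 for 70 genes with 0.5 to 1 CPM. It was 0.164 for 136 genes with 1 to 2 CPM, 0.145 for 407 genes with 2 to 5 CPM and 0.112 for 3668 genes with 5 to 20 CPM. Above that it was 0.0830 for 7184 genes with 20 to 100 CPM and 0.0799 for 2039 genes above 100 CPM. The share of genes with a 2-fold range did not fall at every step. It was 36.8% in the leaf-restricted genes, then 15.7%, 16.9%, 11.5%, 3.27%, 1.53% and 1.18%. Between libraries 2 and 3 alone these shares were 10.5%, 4.29%, 7.35%, 3.44%, 0.818%, 0.362% and 0.294%. The share lowest in library 1 was 65.3% in the leaf-restricted genes, 62.9% in the next group and 22.9% in the highest.

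The median leaf level of these groups was 24.2, 16.8, 15.4, 12.2, 13.4, 35.5 and 115 CPM from the lowest inflorescence level to the highest, so level and counting error varied between them. With the counting variance taken off, the medians were 0.250, 0.164, 0.147, 0.125, 0.0774, 0.0653 and 0.0736. Without library 1 the median CV was 0.187 in the leaf-restricted genes, 0.124 and 0.130 in the next 2 groups, and 0.0659 in the highest. Without library 2 these medians were 0.269, 0.146, 0.164 and 0.0739, and without library 3 they were 0.258, 0.217, 0.133 and 0.0566. The leaf-restricted genes had the highest median in each case, and the order of the next 2 groups changed with the library left out.

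**Figure D5:**
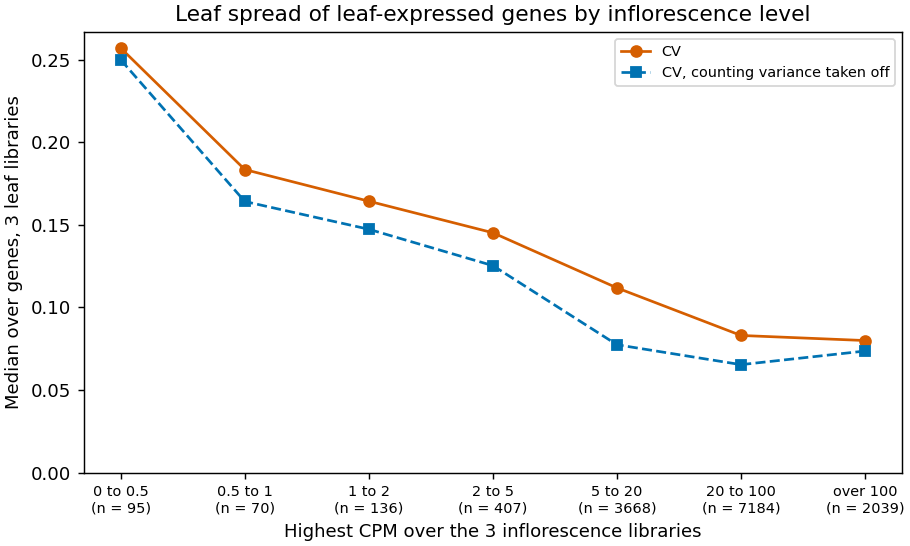
Median CV over the 3 leaf libraries, as measured (circles) and with the counting variance taken off (squares), for leaf-expressed genes grouped by their highest CPM in the 3 inflorescence libraries. The leftmost group is the 95 leaf-restricted genes, at 0.257 and 0.250, and the rightmost stands at 0.0799 and 0.0736.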

How the data were processed

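Raw counts per gene identifier were used as the authors deposited them, 1 table per library. They are whole numbers whose totals differ between libraries. TAIR10 is the one build listed, per the submitters' processing notes. Which genome A. lyrata reads were aligned to, the aligner, the counter and its use of strand were not given in the sources used here. The genes, thresholds and comparison sets were chosen with earlier results of these data known. CPM came from raw totals. CV, fold range, chi-square against counting error and library order were computed for each gene over the 3 leaf libraries, as a description without a test. The counting variance taken off is that of Poisson counts.

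The tissues were compared in edgeR 4.0.16 (R 4.3.3), using filterByExpr, TMM scaling, the quasi-likelihood test on a model of tissue alone and Benjamini-Hochberg adjustment over 19638 genes at 0.05. The fit and the spread measures were tested on simulated data. Alternatives were other scalings, DESeq2 1.42.0, limma-voom (limma 3.58.1), no filter, a replicate block, other thresholds and leaving out each library. Deviations of same-numbered leaf and inflorescence libraries correlated weakly, at 0.0873, 0.126 and -0.0904, so numbers were not taken as pairs. These values cannot show whether same-numbered libraries shared plants. Python 3.11.15, numpy 2.4.6, pandas 2.3.3, scipy 1.17.1 and matplotlib 3.10.9 were used. Genes printed by identifier are the pair with the highest mean leaf CPM.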

Additional observations from a re-analysis of the deposited data

How the results depend on the processing

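The 95 genes depend mainly on the thresholds. A leaf minimum of 2 CPM gave 172 genes and one of 10 CPM gave 64. An inflorescence maximum of 1 CPM gave 165 genes and one of 0.2 CPM gave 40. TMM scaling, DESeq2 size factors and totals without genes above 1% of a library each gave 97, all 95 included. Leaving out 1 library gave 97 to 138 genes. The median CV of the leaf-restricted genes was 0.258 with TMM scaling, 0.250 with the counting variance taken off and 0.187 to 0.269 with 1 leaf library left out. As an SD of log2(CPM + 0.5) it was 0.366. For leaf-expressed genes, in alternatives added after the data were seen, the same measures were 0.0718 with the counting variance taken off, 0.0729 to 0.0791 with a library left out, and 0.130 as a log2 SD. Also added were counts without 1 leaf library of leaf-restricted genes with a 2-fold range, 10 to 28, and with a 4-fold range, 0 to 7. The lowest of both came from leaving out library 1. Library 1 was lowest for 62 genes under all 3 scalings tried. The set was called lower in inflorescences in full under every edgeR alternative and DESeq2, and 91 of 95 with limma-voom. With the replicate block, 95 of the set and 6545 genes in all were called lower, against 6691 without it. Correlations of deviations between same-numbered leaf and inflorescence libraries were 0.0873, 0.126 and -0.0904, and not every library correlated best with its own number. Depth limits the inflorescence side, where 0.5 CPM is 3.61 to 6.36 counts.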

Other observations

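Genes restricted the other way showed a wide spread as well. With leaf and inflorescence exchanged in the rule, 516 genes were inflorescence-restricted. Their median CV over the 3 inflorescence libraries was 0.231, beside 0.0745 for the 14769 genes that meet the inflorescence conditions alone. A range of 2-fold or more was found in 138 of the 516 (26.7%), beside 2.62% of the 14769. The lowest level lay in library 1 for 48.4% of the 516, in library 2 for 11.8% and in library 3 for 39.7%, beside 33.6%, 32.9% and 33.5% of the 14769. The 2 tissues were not tested against each other for this spread.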
